A study of Mus musculus with 136 samples.

Results

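The 9 genes described here were the members of the Nkx homeobox family given by name: Nkx1-1, Nkx1-2, Nkx2-1, Nkx2-2, Nkx2-3, Nkx2-5, Nkx2-9, Nkx6-1 and Nkx6-2. They were 9 of 21883 protein-coding genes on chromosomes 1 to 19, X and Y. Each gene was given a window of its mm10 gene body plus 2500 bp on both sides, and every peak that overlapped the window by at least 1 bp was taken from 10 peak lists. All lists came from untreated mouse embryonic stem cells (ESCs) of the E14JU line (strain 129/Ola), kept on gelatin in serum with leukaemia inhibitory factor. SUZ12 was profiled by crosslinked ChIP-seq in 3 clones, WT clone 410 and the MCM2-2A clones 439 and 442. In MCM2-2A cells the part of MCM2, a replicative helicase subunit, that binds histones is mutated, and each clone is a single derived line, so with 1 WT clone a difference from WT cannot be told apart from a difference between clones. Histone marks came from native ChIP-seq on MNase-digested chromatin of WT clone 410. The original experiment gave H3K4me3, H3K27ac, H3K27me3 and H3K9me3 (2 replicates each), and the rescue experiment gave H3K4me3, H3K27me3 and H3K9me3 again (3 replicates each). The authors had combined the replicates (3 for SUZ12) into 1 list per clone and mark, so every value below has no replicate spread and no test, and the read depth is unknown. As a check of the cell type, all 6 markers examined (Pou5f1, Nanog, Sox2, Klf4, Esrrb and Zfp42) had an H3K27ac peak, as did 66.1% of all genes. Their strongest fold enrichments ran from 10.5 (Klf4) to 39.9 (Sox2), against a median of 10.4 over genes with the mark. Klf4 and Esrrb also had a WT SUZ12 peak, of 11 and 61.7.

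Nkx genes encode homeodomain transcription factors of the NK-like (NKL) class, which set organ and neuron identity in the embryo and are mostly silent in ESCs. Polycomb repressive complex 2 (PRC2), of which SUZ12 is a core subunit, places H3K27me3 and keeps such developmental genes repressed. Many of their promoters also carry H3K4me3, a mark of promoters, and the 2 marks together are called bivalent. H3K27ac marks active promoters and enhancers, and H3K9me3 marks heterochromatin.

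By role, the members fall into 3 sets. Nkx2-2, Nkx2-9, Nkx6-1 and Nkx6-2 pattern the ventral neural tube, and Nkx2-2 and Nkx6-1 also act in the endocrine pancreas. Nkx2-1 acts in thyroid, lung and ventral forebrain, Nkx2-3 in spleen and gut, and Nkx2-5 in the heart. Nkx1-1 and Nkx1-2 are expressed in the nervous system and the posterior embryo.

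The start site of every member was placed from RefSeq promoters of GRCm38.p6, each covering 250 bases before the start and 50 after it, and all 9 members matched 1 promoter. PRC2 in mammals is found at CpG-rich sequence, so CG pairs were counted. The members held 9 to 40 of them, with a median of 17, against a median of 13 over 21262 promoters of 17491 protein-coding genes. The promoters at both ends of that range are shown with those of Nkx1-1, which had the strongest SUZ12 peak, and Nkx2-9, which had the weakest SUZ12 peak in clone 442 and the strongest H3K27ac. Each is printed 5′ to 3′ on the strand of the gene, with CG pairs in capitals, and is reference sequence rather than sequence of these cells.
Nkx6-1 (chr5:101664662-101664961, minus strand, 40 CG pairs): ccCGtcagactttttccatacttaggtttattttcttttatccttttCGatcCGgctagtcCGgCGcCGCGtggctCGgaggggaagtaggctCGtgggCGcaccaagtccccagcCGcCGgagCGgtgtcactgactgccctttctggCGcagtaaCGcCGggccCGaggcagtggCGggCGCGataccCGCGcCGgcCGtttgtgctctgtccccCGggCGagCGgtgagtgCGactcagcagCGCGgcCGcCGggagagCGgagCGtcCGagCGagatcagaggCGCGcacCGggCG
Nkx2-5 (chr17:26841516-26841815, minus strand, 9 CG pairs): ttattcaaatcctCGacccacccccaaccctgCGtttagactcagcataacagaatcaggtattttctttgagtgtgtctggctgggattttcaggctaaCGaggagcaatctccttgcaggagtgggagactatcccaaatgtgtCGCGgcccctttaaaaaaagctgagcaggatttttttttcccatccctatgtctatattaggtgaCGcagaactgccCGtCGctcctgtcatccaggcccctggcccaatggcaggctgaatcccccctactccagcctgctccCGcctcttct
Nkx1-1 (chr5:33434041-33434340, minus strand, 37 CG pairs): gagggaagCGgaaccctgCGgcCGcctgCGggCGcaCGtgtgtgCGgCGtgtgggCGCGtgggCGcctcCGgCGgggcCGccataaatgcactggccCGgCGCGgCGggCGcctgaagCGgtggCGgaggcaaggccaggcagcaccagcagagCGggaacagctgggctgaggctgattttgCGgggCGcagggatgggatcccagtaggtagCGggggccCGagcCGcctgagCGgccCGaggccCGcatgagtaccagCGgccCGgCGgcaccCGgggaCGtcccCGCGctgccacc
Nkx2-9 (chr12:56613235-56613534, minus strand, 15 CG pairs): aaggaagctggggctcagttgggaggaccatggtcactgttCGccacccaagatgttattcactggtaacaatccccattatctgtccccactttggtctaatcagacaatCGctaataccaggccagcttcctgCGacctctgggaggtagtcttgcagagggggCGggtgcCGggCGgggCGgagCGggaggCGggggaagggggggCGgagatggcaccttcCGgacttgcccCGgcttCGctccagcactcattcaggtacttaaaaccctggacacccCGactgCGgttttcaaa

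The other promoters held 32 CG pairs (Nkx6-2), 21 (Nkx1-2), 17 (Nkx2-2), 15 (Nkx2-3) and 12 (Nkx2-1). Those of Nkx6-1 and Nkx1-1 had more than 94.9% and 92.7% of all promoters, and that of Nkx2-5 more than 41.1%. CG content around the start site thus varied widely inside the family. All 9 promoters lay under SUZ12, in peaks far wider than the sequence counted, and a link to CG content was not tested. The letters AAGTG, the core of the site that Nkx2 homeodomains bind, were found on either strand of 4 of 9 member promoters and of 45.2% of all promoters. TATAAA was in 0 of 9 (12.6% of all promoters) and TAATTA, a common homeodomain core, in 0 of 9 (4.53% of all).

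SUZ12 covered the Nkx genes in WT and in both MCM2-2A clones. A SUZ12 peak lay in 9 of 9 windows in each list, while 22.5% of all genes had one in WT, 26.2% in clone 439, 27.7% in clone 442 and 21.3% in all 3 lists. Peaks were strong as well as present: the strongest peak of a window had a median fold enrichment (signal over local background, as written by the authors' peak caller) of 99.9 in WT, against 17.3 over genes with a WT peak. Placed from 0 (weakest) to 1 (strongest) among the peaks of the WT list, the members' peaks had rank fractions of 0.902 to 1.0 with a median of 0.986. All 9 were therefore among the strongest 10% of WT peaks.

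Among the neural tube genes, Nkx6-1 (chr5:101659184-101664711) had a strongest fold enrichment of 104 in WT, 109 in clone 439 and 81.6 in clone 442. Nkx2-2 (chr2:147176485-147195434) gave 99.9, 87.9 and 83.1 in the same order. Nkx2-9 (chr12:56611389-56613569) gave 63.6, 59.0 and 27.5. Clone 442 was lowest at each of these 3 genes, and at Nkx2-9 its peak ranked 1632 of 7840, outside the strongest 10% of its list. Nkx6-2 (chr7:139579376-139582797) was the exception, at 55.9 in WT, 75.2 in clone 439 and 56.0 in clone 442. It had the lowest value of the family in WT and ranked higher in both mutant lists (621 in WT, 251 in clone 439, 317 in clone 442).

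Nkx2-1 (chr12:56531935-56536908) had values of 119 in WT, 84.6 in clone 439 and 95.9 in clone 442. Nkx2-3 (chr19:43612325-43615892) had 124, 120 and 74.2. Nkx2-5 (chr17:26838664-26844988) had 93.4, 84.3 and 60.1. WT was highest at all 3 of these organ regulators, and the lower mutant clone was 439 at Nkx2-1 and 442 at the other two. By rank within its own list the Nkx2-1 peak stood at 22 in WT, 152 in clone 439 and 10 in clone 442, so its place in clone 442 was not below that in WT.

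Nkx1-1 (chr5:33430734-33434090) had the strongest SUZ12 peak of the whole WT list, at 166, followed by 128 in clone 439 (rank 5) and 82.6 in clone 442 (rank 39). Its relative Nkx1-2 (chr7:132596239-132599637) had 80.4, 83.7 and 69.3. The order of the members was not the same in the 3 lists, and Nkx1-1 was highest in WT and clone 439 while Nkx2-1 was highest in clone 442.

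**Figure D1:**
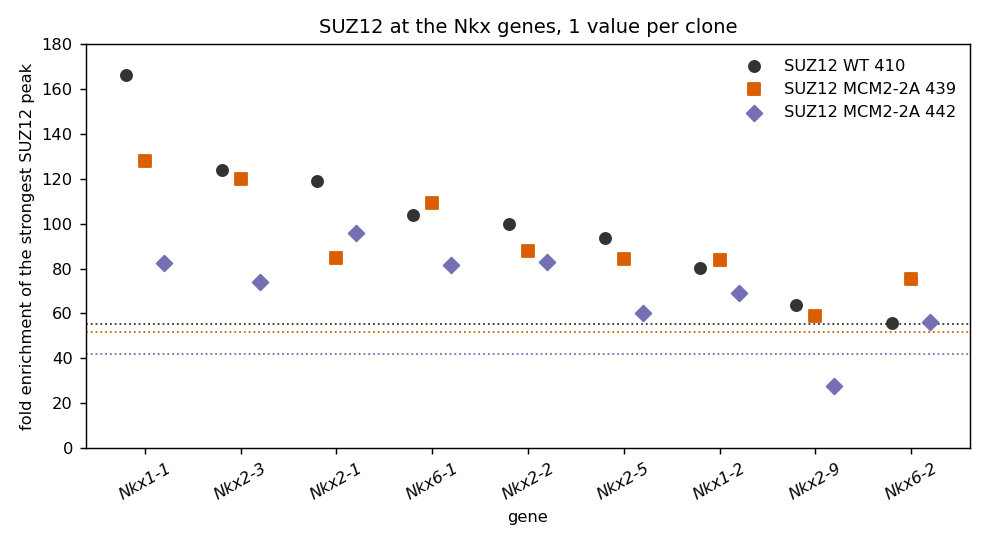
The vertical axis gives the fold enrichment of the strongest SUZ12 peak in each gene window, with 1 point per clone (WT 410, MCM2-2A 439 and MCM2-2A 442) and genes ordered by WT. Dotted lines mark the lowest value of the strongest 10% of peaks in each list (55.5 in WT, 51.8 in clone 439, 41.9 in clone 442), and the clone 442 point of Nkx2-9 at 27.5 is the one member value below its line.

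To ask how SUZ12 at these genes differed between MCM2-2A and WT, the ratio of the strongest fold enrichments was taken for each gene. In clone 439 the members' ratios ran from 0.712 (Nkx2-1) to 1.35 (Nkx6-2) with a median of 0.927, and in clone 442 from 0.433 (Nkx2-9) to 1.0 (Nkx6-2) with a median of 0.784. Over all 4651 genes with SUZ12 in the 3 lists the medians were 1.12 and 1.01. Below WT were 6 of 9 members in clone 439 (34% of all genes) and 8 of 9 in clone 442 (48.5% of all genes). The 3 genes not below WT in clone 439 were Nkx1-2, Nkx6-1 and Nkx6-2, with ratios of 1.04, 1.05 and 1.35. The Nkx2-2 ratios were of a peak that did not hold its start site. The Nkx2-2 peak over the start site was higher in clone 439 (67) and lower in clone 442 (45.2) than in WT (59.7).

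Strong peaks in general had lower ratios, so the members were also read against the genes whose WT peak had a rank fraction of at least 0.9, a limit chosen after the values were seen. Among these genes the median ratio was 0.919 in clone 439 and 0.748 in clone 442 (691 genes with a peak in all 3 lists), close to the members' 0.927 and 0.784. Of 693 such genes with a peak in the mutant list, 71.9% were below WT in clone 439 and 92.9% in clone 442. The WT value enters both the choice of these genes and the ratio. The members as a group thus had ratios close to those of other strongly bound genes in both clones.

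A ratio at least 1.5 times lower than WT was found at 0 of 9 members in clone 439, where 2.84% of all genes and 6.2% of strongly bound genes had one. In clone 442 it was found at 4 of 9, namely Nkx1-1 (0.498), Nkx2-3 (0.596), Nkx2-5 (0.643) and Nkx2-9 (0.433), where 10.2% of all genes and 34.6% of strongly bound genes had one. No member was at least 1.5 times higher in either clone, against 13.7% of all genes in clone 439 and 11.9% in clone 442. Members were also placed by the share of strongly bound genes, the member included, with a ratio at or below its own. At the edges were Nkx2-9, with 3.04% in clone 442, and Nkx6-2, with 97.8% in clone 439 and 93.2% in clone 442. Nkx2-1 had the lowest ratio of the members in clone 439 (a share of 9.41%), yet in clone 442 its ratio of 0.808 had a share of 67.0%.

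**Figure D2:**
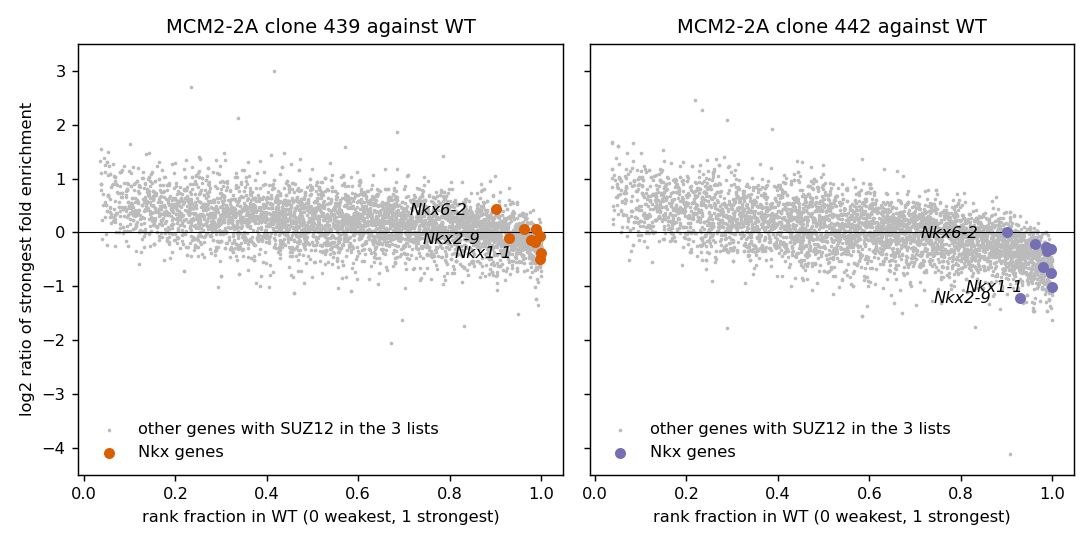
Each point is a gene with SUZ12 in the 3 lists, with its rank fraction in WT on the horizontal axis and the log2 ratio of strongest fold enrichment of clone 439 (left) or clone 442 (right) to WT on the vertical axis. The coloured Nkx genes lie at the right edge, where most genes of clone 442 are below 0, and Nkx2-9 (log2 ratio -1.21) and Nkx1-1 (-1.0) are the lowest members there.

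The strongest member peaks had a median width of 8.7 kb in WT, 10.1 kb in clone 439 and 9.31 kb in clone 442, against 5.94, 5.81 and 5.82 kb over the strongest 10% of peaks in each list. SUZ12 covered 85.8 kb of the member windows in WT, 86.3 kb in clone 439 (ratio 1.01) and 85.3 kb in clone 442 (0.993). The windows held 96.7 kb in all, so no ratio above 1.13 was possible and a wider spread of SUZ12 in the mutant clones would hardly show in this measure. The windows of Nkx2-1, Nkx2-3 and Nkx6-1 lay wholly under SUZ12 in each list. The median member window was covered to 88.8% in WT, against 19.2% for strongly bound genes, whose gene bodies can be longer.

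The widest member peaks were those of Nkx2-3 (15.4 kb in WT, 15.9 in clone 439, 15.6 in clone 442) and Nkx2-1 (14.4 kb in each list). Nkx6-1 followed with 13.9, 13.6 and 14.4 kb, and Nkx1-1 had 10.3, 10.2 and 10.3 kb. Peak edges at Nkx1-1 were within 61 bp of WT in both mutant clones, although the difference in fold enrichment from WT was the largest of the family in both. Narrower peaks were found at Nkx1-2 (7.6, 7.54 and 7.09 kb), Nkx2-9 (6.81, 7.71 and 5.9 kb) and Nkx6-2 (6.86, 6.92 and 6.9 kb). The Nkx6-2 peak also overlapped the end of Inpp5a, an inositol phosphate phosphatase gene, so both genes were assigned the same peak.

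Nkx2-2 and Nkx2-5 had more than 1 SUZ12 peak. At Nkx2-2 the peak over the start site (chr2:147179234-147192327 in WT) had fold enrichments of 59.7 in WT, 67 in clone 439 and 45.2 in clone 442. A stronger peak began 93 bp beyond it in WT, at the upstream end of the annotated gene, and its summit lay 8644 bp upstream of the start site in WT. That peak was 5.86 kb wide in WT and 3.57 and 3.6 kb in the mutant clones, and in clone 442 a separate peak of 5.69 lay where the WT peak continued. At Nkx2-5 a WT peak of 5.68 lay upstream of the main one, in bases that the single 10.1 kb peak of clone 439 partly covered. A peak further upstream of Nkx2-5 had values of 61.6 in WT, 33.6 in clone 439 and 38.1 in clone 442, but it reached the window only in clone 442, by 177 bp, and did not set the value of the gene.

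The start site lay under a SUZ12 peak at 9 of 9 members in each list, and that peak was the strongest of its window at 8 of them, Nkx2-2 being the exception. How often start sites lay under peaks at other genes was not counted, for SUZ12 or for the marks below. Such cover is therefore not shown to be particular to the members. The highest point of the strongest peak was seldom at the start site. In WT it lay downstream, inside or beyond the gene, at 7 of 9 members, with a median distance of 2016 bp in either direction. Over 2743 genes with 1 start site, 82% of summits were downstream and the median distance was 530 bp. Nkx1-1 had the closest summit in WT, 38 bp upstream, and Nkx2-1 the farthest downstream, at 3539 bp.

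Summits mostly stayed in place between clones, as they did at other genes. Within 100 bp of the WT summit were 8 of 9 in clone 439 and 6 of 9 in clone 442, against 70.1% and 69.8% of all genes with SUZ12 in the 3 lists. Among strongly bound genes the shares were 77.3% and 76.1%. Nkx1-1 had the largest move, since its summit in clone 442 lay 2781 bp downstream of the start site, 2819 bp from the WT summit. The other moves over 100 bp were 284 bp (clone 439) and 253 bp (clone 442) at Nkx1-2 and 287 bp at Nkx6-2 in clone 442.

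**Figure D3:**
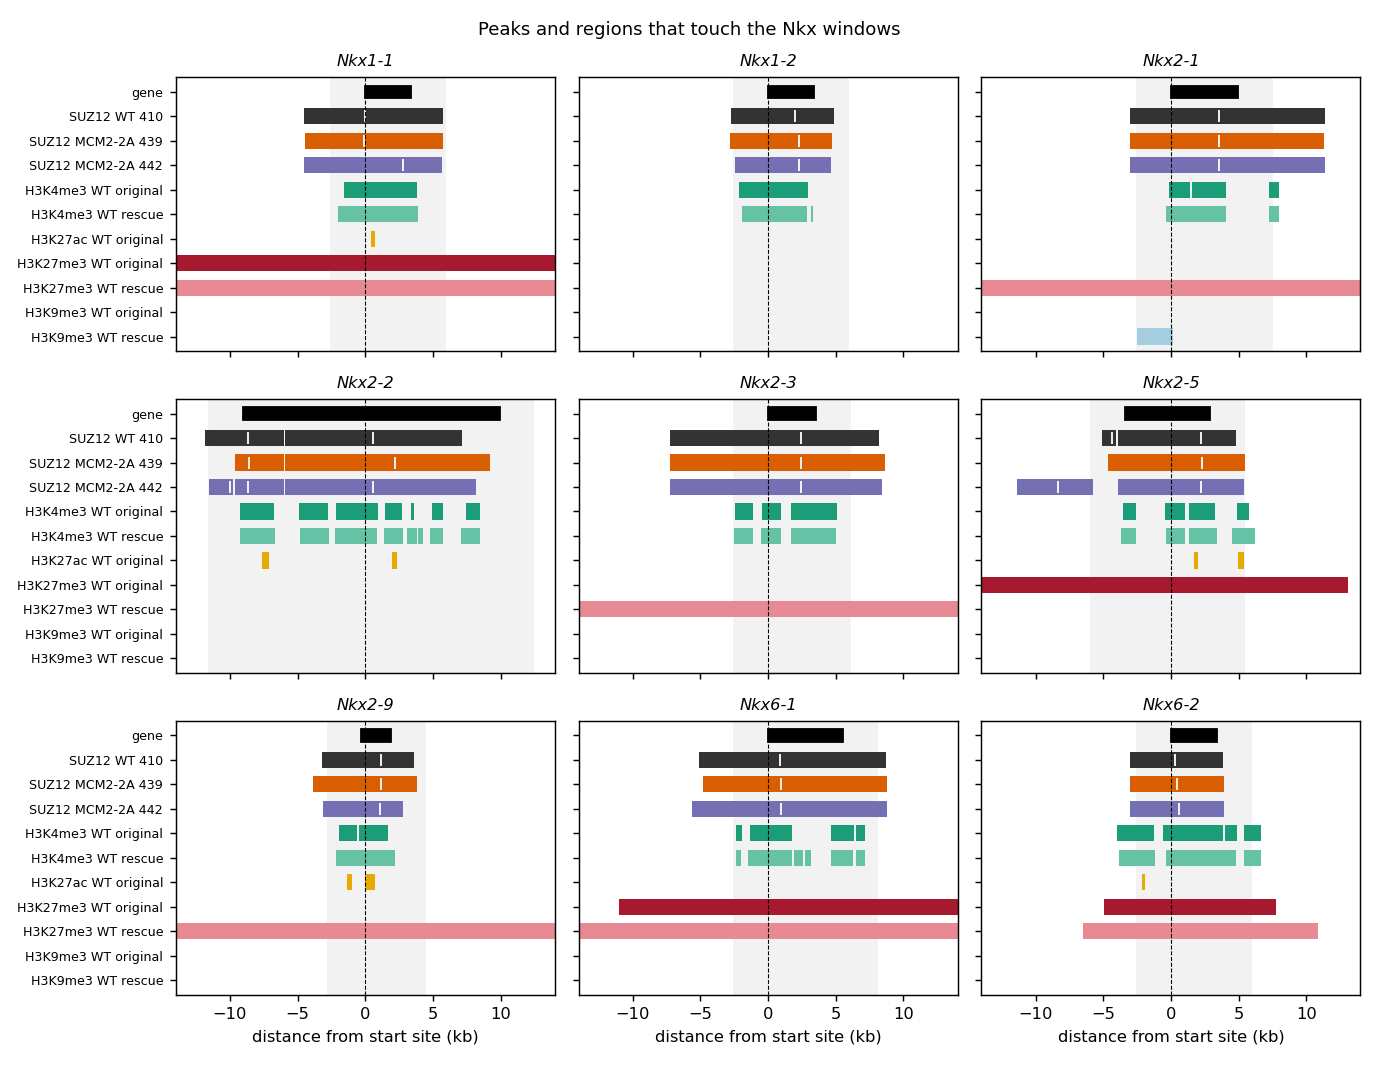
Each panel is 1 gene, with the distance from its start site in kb on the horizontal axis (gene direction to the right) and bars for the peaks and regions of the 10 lists that touch its window (grey shading). White ticks mark SUZ12 summits and the black bar is the gene. SUZ12 spans the start site in every panel, and the H3K27me3 regions that run past the panel edges are present at some genes and not listed at Nkx1-2 and Nkx2-2.

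H3K4me3 was found at all members, at moderate height. A peak lay in 9 of 9 windows in the original list (78.1% of all genes) and in the rescue list (79.4%), and a peak covered the start site at 9 of 9 in both. The strongest peak had a median fold enrichment of 45.6 in either list, below the 77.6 (original) and 66.6 (rescue) of all genes with a peak. The peaks nonetheless covered a median of 55.4% and 60.4% of the member windows. At strongly bound genes, whose gene bodies can be longer, the medians were 15.8% and 18.6%. The highest values were at Nkx6-1 (66.7 in the original list, 53.2 in the rescue list) and Nkx2-9 (57.5 and 54.4). Nkx1-1, highest in WT SUZ12, was lowest in H3K4me3 in both lists, at 27.4 and 30.8.

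The remaining members lay between these, at 51.8 and 40.7 (original and rescue) for Nkx1-2, 51.1 and 49.7 for Nkx6-2, 45.6 and 38.1 for Nkx2-5 and 45.5 and 42.5 for Nkx2-3. Nkx2-2 had 36.8 and 45.6, and Nkx2-1 had 29.8 and 45.9, the largest difference between the 2 lists. At Nkx2-2 the mark was split into 7 peaks in the original list and 8 in the rescue list, while Nkx1-1 had a single peak of 5.41 kb and 5.94 kb. H3K4me3 lay inside SUZ12: all of its bases in the window were under WT SUZ12 peaks at 6 of 9 members in both lists, and at Nkx2-2, Nkx2-5 and Nkx6-2 the share was 90.7%, 89.5% and 80.2% in the original list. The median over strongly bound genes was 88.5%. Seen from SUZ12, H3K4me3 took 43.4% (Nkx2-1) to 89.4% (Nkx6-2) of the SUZ12 bases in the original list. Part of the SUZ12 bases was thus without H3K4me3 at each member. At Nkx6-2 those bases lay between H3K4me3 peaks, which ran past SUZ12 on both sides.

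H3K27ac at the members was of low fold enrichment. It was found at 5 of 9 (Nkx1-1, Nkx2-2, Nkx2-5, Nkx2-9 and Nkx6-2), a share close to the 53.9% of strongly bound genes, and at 66.1% of all genes. H3K27ac covered a median of 1.92% of the member windows, against 0.241% for strongly bound genes, whose gene bodies can be longer. It covered a median of 2.55% of the members' WT SUZ12 bases, against 0.0% at strongly bound genes. None of these 8 peaks covered a start site, although the strongest peak of Nkx2-9 came within 8 bp of its start site. Nkx2-9 had the highest value, 6.78, in a peak of 686 bp whose summit lay 229 bp downstream of the start site, and a further peak 1129 bp upstream. Nkx2-5 had 4.39, in a peak beyond the end of the gene. Nkx2-2 (3.04), Nkx1-1 (2.91) and Nkx6-2 (2.82) had rank fractions of 0.195 or less in the list. The median over genes with the mark was 10.4, which no member reached. Nkx2-9, highest in H3K27ac, was also the member with the lowest SUZ12 ratio in clone 442, a pairing seen after the fact among 9 genes.

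H3K27me3 took all of a member window or none of it, and the 2 WT lists differed in which. In the original list 4 of 9 members were marked (Nkx1-1, Nkx2-5, Nkx6-1 and Nkx6-2), against 40.1% of all genes and 73.6% of strongly bound genes. In the rescue list 6 of 9 were marked (Nkx1-1, Nkx2-1, Nkx2-3, Nkx2-9, Nkx6-1 and Nkx6-2), against 59.1% and 83%. Other gene bodies can be longer, and a longer window meets a region more easily. These shares are not matched for window length. Nkx1-1, Nkx6-1 and Nkx6-2 were in both lists and Nkx1-2 and Nkx2-2 in neither. Nkx1-2 and Nkx2-2 had WT SUZ12 values of 80.4 and 99.9, above those of Nkx6-2. A gene missing from a list is not shown to lack the mark, because each list holds only the regions that the authors kept after combining replicates, and the signal itself was not analysed here.

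Where listed, the regions were long and ranked high. In the original list they measured 100491 bp at Nkx1-1, 54.1 kb at Nkx6-1 (the 16th strongest of 41869 regions), 35.9 kb at Nkx2-5 and 12.8 kb at Nkx6-2. In the rescue list they measured 179 kb at Nkx2-1, 163 kb at Nkx2-9, 102 kb at Nkx1-1, 88.4 kb at Nkx6-1, 84.5 kb at Nkx2-3 and 17.4 kb at Nkx6-2. Their rank fractions were 0.963 or more in the original list and 0.993 or more in the rescue list. Nkx2-1 and Nkx2-9 lie 74.5 kb apart on chromosome 12 and were in separate regions of the rescue list. These were chr12:56400340-56579810 and chr12:56584190-56747160, with only a short gap between them. The region of Nkx2-9 also held Pax9, a regulator of pharyngeal and tooth development that had a WT SUZ12 value of 64.4.

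For the unlisted members the nearest region was often far from the window. In the original list it lay 156389 bp away at Nkx1-2, 116341 bp at Nkx2-9, 79705 bp at Nkx2-1, 37055 bp at Nkx2-2 and 31258 bp at Nkx2-3. In the rescue list it lay 62765 bp away at Nkx2-2, 37929 bp at Nkx1-2 and 6164 bp at Nkx2-5. Gaps of this kind were not particular to the family, since 55.2% of the strongest 10% of WT SUZ12 peaks overlapped an H3K27me3 region in the original list and 70.2% in the rescue list, against 59.8% and 78.5% of all WT peaks.

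Bivalency followed the H3K27me3 lists, because all members had H3K4me3. An H3K4me3 peak and an H3K27me3 region shared bases at 4 of 9 members in the original lists (26.6% of all genes) and at 6 of 9 in the rescue lists (40.5%). Among strongly bound genes, whose gene bodies can be longer, the shares were 64.9% and 79.7%. H3K9me3 was at 0 of 9 members in the original list (33.8% of all genes) and at 1 of 9 in the rescue list (58.7%). That member was Nkx2-1, where a region of 2.69 kb (chr12:56536750-56539440) lay over the start site and the bases before it and took 26.7% of the window. No such region was in the original list there, so the call rests on 1 list. Among strongly bound genes, whose gene bodies can be longer, H3K9me3 was at 38.8% in the original list and 57.8% in the rescue list. With 10000 bp on both sides of the gene body, 2 of 9 members had H3K9me3 in the original list.

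**Figure D4:**
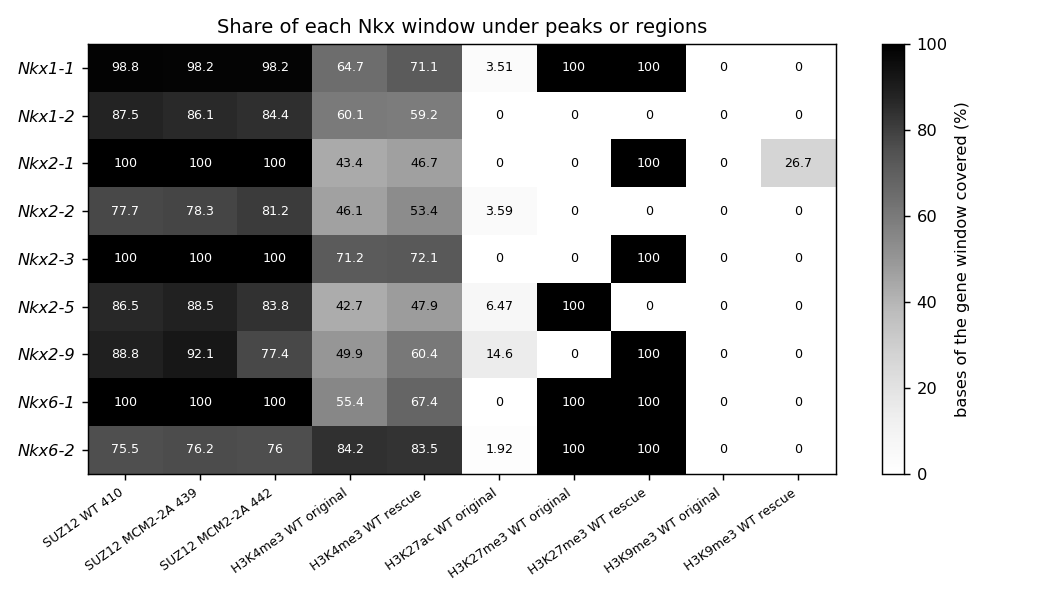
The grey scale and the printed values give the percent of the bases of each gene window (rows) under the peaks or regions of each list (columns), with no replicate error. SUZ12 covers at least 75.5% of every window in WT, H3K27me3 covers 100 or 0, and H3K9me3 is 0 but for 26.7 at Nkx2-1 in the rescue list.

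Of the other family genes, Nkx2-4, Nkx2-6, Nkx3-2 and Nkx6-3 each had SUZ12 in the 3 lists. Their strongest WT values were 99.1 at Nkx2-4, 57.9 at Nkx3-2, 50.2 at Nkx2-6 and 25.2 at Nkx6-3, so Nkx2-4 alone of these genes stood well above the lowest of the 9 members (55.9). H3K27ac was found at Nkx6-3 and not at the other genes named, and none of them had H3K9me3 in either list. H3K4me3 shared bases with H3K27me3 at Nkx2-4, Nkx2-6 and Nkx3-2 in the lists of both experiments and at Nkx6-3 in the rescue lists. Nkx2-4 lies 91.0 kb from Nkx2-2, which had no H3K27me3 region in either list.

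Relatives and partners of the Nkx factors were read in the same way, in 4 lists of which some genes are shared. Of 27 NKL homeobox relatives found (Vent was not matched), 26 had SUZ12 in WT, 27 in clone 439 and 26 in clone 442. Hmx1, Emx1 and Hlx led them with WT values of 126, 124 and 114. H3K27ac was at 4 of 27 (66.1% of all genes). H3K27me3 was at 13 in the original list (40.1% of all genes) and 22 in the rescue list (59.1%). Over all genes the SUZ12 shares were 22.5% in WT, 26.2% in clone 439 and 27.7% in clone 442. Their median ratio to WT was 1.01 in clone 439 and 0.694 in clone 442.

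Of 20 regulators of the ventral neural tube, 18 had SUZ12 in WT and 20 in each mutant clone, led by Olig2 (130), a motor neuron and oligodendrocyte factor, and by Foxa2 (113) and Irx3 (110). Their median ratios were 0.897 and 0.701 in clones 439 and 442. All 12 heart partners of Nkx2-5 had SUZ12 in each list, led by Gata6 (143), Tbx2 (106) and Hand2 (103), with median ratios of 0.961 and 0.767. Of 20 thyroid, lung and pancreas genes, 14 had SUZ12 in WT and 13 in each mutant clone, with 131 at Foxe1 and 112 at Ptf1a, and with median ratios of 1.14 and 0.91. H3K27ac was at 11 of 20 neural tube genes, 5 of 12 heart genes and 9 of 20 of the last list. Over all genes the shares were 66.1% for H3K27ac and, for SUZ12, 22.5% in WT, 26.2% in clone 439 and 27.7% in clone 442. In each list the median ratio was lower in clone 442 than in clone 439, and so it was over all genes. The lists differed in median strongest WT SUZ12 value. It was 91.7 for NKL relatives, 81.3 for neural tube, 51.2 for heart and 55.6 for thyroid, lung and pancreas genes. Strong peaks in general had lower ratios, so a difference in ratio between these lists cannot be told apart from one in WT strength.

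Among the genes outside the family whose profile lay nearest to the members' median were Gm42517, Insm1, Bsx and Nr2f1. Likeness was the Euclidean distance over 7 values, namely the rank fractions of the strongest SUZ12 peak in 3 lists and of the strongest H3K4me3 peak in 2 lists, and the share of the window under H3K27me3 in 2 lists. Their distances were 0.013, 0.02, 0.027 and 0.03. Of the members themselves, Nkx2-3 (0.025) and Nkx2-1 (0.063) were nearest to the median and Nkx2-5 (1.415) farthest, its H3K27me3 being in the original list and not in the rescue list.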

How the data were processed

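The authors deposited 1 peak list per clone and mark. Tools named in the submitters' processing notes, with no role attached, are MACS2 2.1.0, Picard 2.20.7, BWA 0.7.15 and cutadapt 2.5, and the build is mm10. Settings of the peak calling are not given in the sources used. Narrow peaks (SUZ12, H3K4me3, H3K27ac) were deposited with a fold enrichment (ratio), a score, a -log10 q and a -log10 p (not used), and the SUZ12 lists were already filtered on irreproducible discovery rate. Broad regions (H3K27me3, H3K9me3) were deposited with unnamed strength scores of unknown scale, of which the last was used only for ranks. Both experiments had a Drosophila spike-in, but no scaling of the fold enrichments between lists is stated, so ratios between clones are of values as deposited. Lists hold no counts, so depth was unknown and no interval could be given.

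Peaks were joined to RefSeq gene windows of GRCm38.p6 (python 3.11.15, pandas 2.3.3, numpy 2.4.6) with positions counted from 1, and the code was tested on simulated lists. Groups came from the labels, and 26 of 136 samples lay behind the 10 lists. The other samples were not analysed here. No test was run, and a ratio was counted as lower or higher from 1.5-fold. The genes named were all members, the other Nkx genes, neighbours under a member's SUZ12 peak or H3K27me3 region, up to 3 genes of each of 4 partner lists by WT SUZ12, and the 5 nearest profiles, and some genes that this rule names are not reported here. The members and lists were chosen with earlier results of these data known. Alternatives were other windows, a 500 bp overlap, lists of equal length, the stronger 50% of a list, q in place of fold enrichment, and the rescue lists.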

Additional observations from a re-analysis of the deposited data

How the results depend on the processing

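Over 14 results, 40 of 57 values under the alternatives equalled the reported ones, 5 differed from them by more than 1.5 times and the others by no more than that. With the 10000 bp window and with no flank, the SUZ12 bases covered in the member windows gave ratios to WT of 0.991 and 1.04 in clone 439, and of 1.02 and 1.02 in clone 442. With 6298 peaks from each list the clone 442 ratio was 0.973, so these ratios lay on both sides of 1. With q in place of fold enrichment the median ratio was 0.901 in clone 439 and 0.8 in clone 442, and the median WT rank fraction was 0.984. The median share of a window under H3K27me3 was 0 in the original list and 100 in the rescue list. Members with H3K27ac numbered 1 with at least 500 bp of overlap and 2 in the stronger 50% of the list. Members with H3K9me3 numbered 2 with the 10000 bp window and 1 in the rescue list. The cause of these moves was not tested, beyond the wider window and smaller lists themselves.

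No paired analysis was possible because the lists combine the replicates, and for the same reason leaving out a replicate was not possible. The depth behind a list is unknown, so a missing peak does not show that a mark is absent.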
